A study of Homo sapiens with 4 samples.

Results

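The ERBB family comprises 4 receptor tyrosine kinase genes, EGFR, ERBB2, ERBB3 and ERBB4, and 10 genes around this family are described here. They were taken by symbol from the 23228 genes counted in each sample. They are the 4 receptors, the feedback inhibitor ERRFI1, the ligands HBEGF, TGFA and NRG1, and STARD3 and GRB7, which flank ERBB2 on chromosome 17 and are often co-amplified with it. All 10 genes had reads in every sample and passed the expression filter of edgeR. RNA was sequenced from cells labelled SKOV3 OCSCs (ovarian cancer stem cells), sorted for ALDH activity with the ALDEFLUOR kit and grown as spheroids. They were treated for 24 h with vehicle (2 samples) or with 5 µM of the ERβ agonist LY500307 (2 samples). The labels name no other difference between the groups. The culture medium of both groups held EGF at 20 ng/ml, which is itself a ligand of EGFR, and bFGF at 20 ng/ml. All samples come from 1 established cell line, and the labels do not say whether replicates were separate cultures, so the p-values measure only the spread between these samples.

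EGF family ligands are made as membrane-bound precursors and shed by metalloproteases. Ligand binding makes the receptors pair, and the pairs phosphorylate each other and recruit adaptors that start the RAS-ERK and PI3K-AKT cascades. ERBB2 binds no known ligand and acts as the preferred partner of the other receptors, whereas ERBB3 has little kinase activity of its own and signals through its partner. SKOV3 is widely used as a model of ERBB2 amplification.

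Markers of several cell types were read, and the libraries did not show several features known for SKOV3. Not each low marker given below is such a feature. Between 28841701 and 34943882 reads per sample were counted on genes. Of 6 epithelial markers, EPCAM was abundant at 194 to 240 CPM (read counts relative to TMM-scaled library sizes), and KRT18 lay between 23.5 and 31.8 CPM. KRT7 and KRT19 had 0 reads in 3 of 4 samples, with 1 and 2 reads in LY500307 replicate 2. KRT8 had 9 to 33 reads and the adhesion gene CDH1 0 to 4 reads. The 4 ovarian carcinoma lineage markers together reached 0.432 to 0.834 CPM, and PAX8 had 0 reads in all 4 samples. SKOV3 is known to have lost CDKN2A, but CDKN2A had 834 to 1107 reads. This gene was looked up after the other markers had been seen, as were the estrogen receptor genes. ESR2, which encodes the ERβ that the agonist targets, had 7 to 12 reads (0.217 to 0.346 CPM), and ESR1 had 0 reads in all 4 samples. The summed markers of endothelial cells reached at most 0.371 CPM, those of leukocytes 11.5 to 17.9 CPM, nearly all of it CD68, and those of fibroblasts 208 to 256 CPM, mostly COL1A1. The 4 ALDH genes summed to 15.6 to 17.3 CPM. The samples are therefore called Vehicle and LY500307 OCSCs in what follows. The amplification of ERBB2 is treated as a trait reported for SKOV3 and not as a fact measured in these samples. In bulk RNA, a change in the number of cells of a type cannot be told apart from a change in RNA per cell.

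The promoters of ERBB2 and TGFA are shown because ERBB2 was the most highly counted of the 10 genes and TGFA was the only one to pass the criteria for a change. The 250 bases before each RefSeq start site (GRCh38.p14) are written 5′ to 3′ on the strand of the gene. ERBB2 lies on the plus strand of chromosome 17 at chr17:39687844-39688093, and TGFA on the minus strand of chromosome 2 at chr2:70553827-70554076.
ERBB2: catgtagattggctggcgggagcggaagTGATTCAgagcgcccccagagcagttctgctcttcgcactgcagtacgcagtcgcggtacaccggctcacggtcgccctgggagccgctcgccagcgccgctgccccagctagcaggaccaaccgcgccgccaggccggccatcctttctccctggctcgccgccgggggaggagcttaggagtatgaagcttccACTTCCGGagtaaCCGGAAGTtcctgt
TGFA: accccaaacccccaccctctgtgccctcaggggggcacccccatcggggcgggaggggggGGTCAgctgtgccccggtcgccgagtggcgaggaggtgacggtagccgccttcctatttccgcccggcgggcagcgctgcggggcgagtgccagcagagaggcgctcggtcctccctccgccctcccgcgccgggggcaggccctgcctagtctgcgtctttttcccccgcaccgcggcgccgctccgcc
Capitals mark exact matches, on either strand, to the estrogen response element arm GGTCA, the AP-1 motif TGANTCA and the ETS motif CCGGAAGT, which do not overlap one another here. ETS factors such as ETV4 and ETV5 act downstream of ERK. The ERBB2 window held 2 ETS matches, at 27 and 14 bases before the start, and 1 AP-1 match. Only 1 start site per gene was used, and other start sites of ERBB2 were not examined. In the GRCh37 annotation the ERBB2 gene start (37844167) lies inside PGAP3 (37827375 to 37853050, minus strand). It is the outermost annotated start and need not be the start site that the window precedes. The ERBB2 window may therefore hold sequence of PGAP3, and its matches may not belong to an ERBB2 promoter. Over the full promoter windows of 27305 genes, which run to 50 bases past the start, 4.44% held this ETS motif, 7.76% the AP-1 motif and 37.7% the GGTCA arm. TGFA held 1 GGTCA arm. The complete palindromic estrogen response element, that is this arm followed by its reverse complement after 3 bases of any kind, was present in 0.0659% of promoters and was found in none of the 7 promoters of these genes that were in the RefSeq table, those of EGFR, ERBB2, ERBB4, STARD3, HBEGF, TGFA and ERRFI1. These matches describe letters in a window and not binding.

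ERBB2 was the leading receptor in each sample. Its read counts were 1461 and 1452 with vehicle, and 2060 and 1824 with LY500307. In CPM, this was 48.7 and 51.1 against 59.4 and 56.4. Both LY500307 samples were above both Vehicle samples. The mean level was 49.9 ± 1.66 CPM (SD, n = 2) with vehicle and 57.9 ± 2.07 CPM (SD, n = 2) after treatment. The log2 fold change was thus 0.21, with a standard error of 0.11 and a 95% interval from -0.03 to 0.46. A gene was called changed, by the criteria of the study, when its log2 fold change was larger than 0.5 in either direction and its p was under 0.05 without adjustment. ERBB2 missed both limits (edgeR quasi-likelihood test, adjusted p = 0.445 over all genes tested). ERBB2 is a plus-strand gene of chromosome 17 (GRCh37, 37844167 to 37886679). In this annotation it overlaps PGAP3 and MIEN1 on the other strand and MIR4728 on its own, and the strand setting of the counting was not stated.

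ERBB3, the kinase-poor partner of ERBB2, moved the other way. Its level was 31.7 and 34.2 CPM in the Vehicle samples and 30.0 and 25.1 CPM in the LY500307 samples, from 949, 971, 1041 and 811 reads. The LY500307 samples were both below the Vehicle samples, by a small gap in replicate 1. The log2 fold change was -0.26 (standard error 0.14, 95% interval -0.58 to 0.06), which did not pass the criteria (edgeR, adjusted p = 0.461). ERBB3 lies on chromosome 12 (GRCh37, 56470583 to 56497289, plus strand).

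EGFR, the receptor for EGF, HBEGF and TGFA, lies on chromosome 7 (GRCh37, 55086710 to 55279321, plus strand). It was counted at 12.8 and 11.0 CPM with vehicle and at 11.2 and 9.10 CPM with LY500307. The groups overlapped, and the log2 fold change was -0.23 (standard error 0.18, 95% interval -0.65 to 0.19; edgeR, adjusted p = 0.589). ERBB4, a neuregulin receptor, was counted at a low level, with 16 and 11 reads in vehicle against 28 and 27 reads after treatment. Both treated samples were higher, at 0.807 and 0.835 CPM against 0.534 and 0.387 CPM. Its log2 fold change of 0.83 had a standard error of 0.49 and a 95% interval from -0.31 to 1.96, and it did not pass the criteria (edgeR, adjusted p = 0.494). In the annotation it overlaps MIR548F2 on the same strand.

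ERRFI1, also known as MIG6, binds activated ERBB kinases and shuts them down, and its transcription is induced by the same signalling. It was the steadiest of the genes, at 16.9 and 17.3 CPM with vehicle and 16.2 and 16.4 CPM with LY500307. Both treated samples were lower, by a log2 fold change of -0.07 (standard error 0.14, 95% interval -0.39 to 0.25; edgeR, adjusted p = 0.847). An absolute change above 0.5 lies outside this interval.

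**Figure D1:**
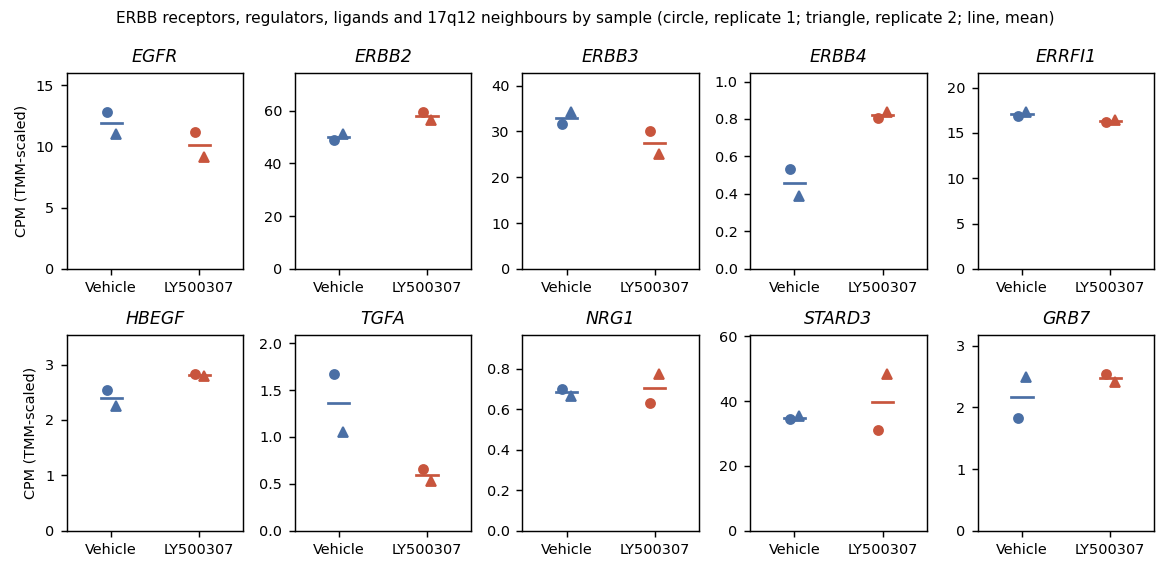
Level of each of the 10 genes in CPM on TMM-scaled library sizes (y axis, starting at 0, a separate scale for each gene) in the Vehicle and LY500307 samples (x axis). Circles are replicate 1, triangles replicate 2 and lines group means. TGFA, ERBB3 and ERRFI1 were lower and ERBB2, ERBB4 and HBEGF higher in both LY500307 samples, whereas STARD3 was high in LY500307 replicate 2 only. Such separation was common, with 24.2% of all genes tested higher and 24.4% lower.

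TGFA, which encodes the EGFR ligand TGF-alpha, was the 1 gene of the 10 that passed the criteria, and it fell. Its counts were 50 and 30 reads with vehicle and 23 and 17 reads after treatment, or 1.67 and 1.06 CPM against 0.663 and 0.526 CPM. The Vehicle samples differed from each other by more than the gap between the groups. The log2 fold change was -1.19 (standard error 0.45, 95% interval -2.23 to -0.15; edgeR, adjusted p = 0.422 over all genes tested). DESeq2 also gave -1.19, but its unadjusted p was above 0.05 and it returned no adjusted value. The estimate was -0.82 without Vehicle replicate 1, -1.36 without LY500307 replicate 1 and -1.03 without LY500307 replicate 2, and the criteria were not met in any of these 3 fits. The call therefore rests on 17 to 50 reads per sample and on each of these 3 samples.

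The other ligands of the 10 did not pass the criteria. HBEGF, a heparin-binding ligand of EGFR and ERBB4, had 76 and 64 reads with vehicle and 98 and 90 reads with LY500307. Its levels of 2.54 and 2.25 CPM were below those of 2.82 and 2.78 CPM after treatment, a log2 fold change of 0.23 (95% interval -0.38 to 0.84; edgeR, adjusted p = 0.717). NRG1, a neuregulin that binds ERBB3 and ERBB4, lies on chromosome 8 and had 21 and 19 reads with vehicle and 22 and 25 reads with LY500307. The groups overlapped, with a log2 fold change of 0.04 and a 95% interval from -1.04 to 1.11 (edgeR, adjusted p = 0.978).

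STARD3 and GRB7, which flank ERBB2, did not pass the criteria either. STARD3 (chromosome 17, GRCh37, 37793343 to 37820454, plus strand), which encodes a cholesterol-binding protein of late endosomes, was at 34.4 and 35.5 CPM in the Vehicle samples but at 31.2 CPM in LY500307 replicate 1 and 48.3 CPM in LY500307 replicate 2. The treated samples thus lay on either side of the Vehicle samples. The log2 fold change of 0.19 (standard error 0.20; edgeR, adjusted p = 0.686) became -0.16 without LY500307 replicate 2 and was 0.47 without LY500307 replicate 1. GRB7, an SH2 domain adaptor that binds ERBB2, had 55 and 71 reads with vehicle and 88 and 78 reads with LY500307, or 1.84 and 2.50 CPM against 2.54 and 2.41 CPM. The groups overlapped, and the log2 fold change was 0.19 (95% interval -0.49 to 0.87; edgeR, adjusted p = 0.789). Without Vehicle replicate 1 it was -0.01.

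Of the 10 genes, 0 rose and 1 fell at the criteria, where 2.76% of the 14473 genes tested rose and 1.86% fell. An unadjusted p below 0.05 was reached by 1 of the 10 genes and by 11.6% of all genes tested. The LY500307 samples were both higher than the Vehicle samples in 3 of the 10 genes (ERBB2, ERBB4 and HBEGF) and both lower in 3 others (ERBB3, TGFA and ERRFI1), against 24.2% and 24.4% of all genes tested. The median log2 fold change of the 10 genes was 0.11, and that of all genes tested was within 0.01 of 0. By DESeq2, 0 of the 10 genes passed the criteria, where 3.07% of 18407 genes did. With edgeR, 0 genes of the 14473 had an adjusted p below 0.05 and 1678 had an unadjusted p below 0.05, and in DESeq2 16 genes had an adjusted value that low.

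**Figure D2:**
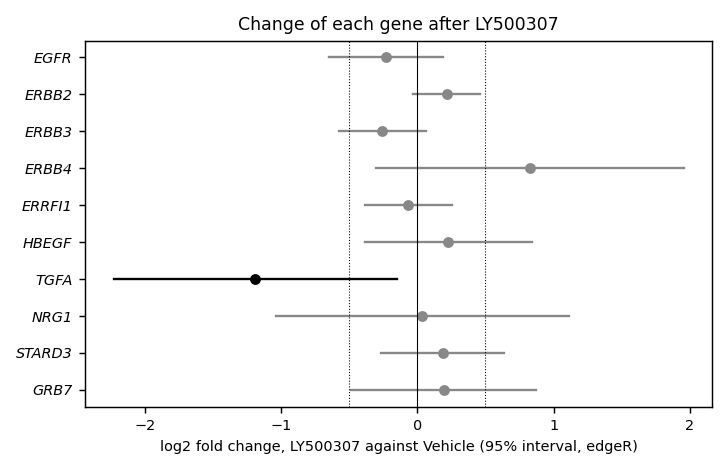
Log2 fold change of LY500307 against Vehicle OCSCs (x axis) with its 95% interval from edgeR for each of the 10 genes (y axis), with dotted lines at -0.5 and 0.5. TGFA, in black, is the only gene whose interval lies on 1 side of 0, from -2.23 to -0.15, and the intervals of ERBB4, NRG1 and TGFA, the genes with the fewest reads, are the widest.

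Levels were compared between genes as CPM per kb of exon, with exonic lengths from GENCODE on GRCh37. STARD3 at 6.38 ± 1.29 and ERBB2 at 5.22 ± 0.47 CPM per kb (SD, n = 4 samples of both groups) led the 10 genes, and their ranges overlapped. ERRFI1 followed at 4.0 ± 0.11 and ERBB3 at 2.58 ± 0.33 CPM per kb, each apart from the next in all 4 samples. HBEGF (0.869), EGFR (0.691) and GRB7 (0.645 CPM per kb) formed a lower group in which neighbours overlapped. TGFA at 0.199 CPM per kb was below GRB7 in every sample. ERBB4 at 0.0492 and NRG1 at 0.0325 CPM per kb were lowest, with overlapping ranges. When the longest transcript was used as the length, STARD3 and ERBB2, HBEGF and EGFR, and ERBB4 and NRG1 changed places and the rest of the order held.

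Among the 13786 genes tested with a known length, ERBB2 was above 47.6% and STARD3 above 52.7%, so that both were near the middle of the expressed genes. With the longest transcript as the length these shares were 57.6% and 57.4%. EGFR was above 17.3%, ERBB3 above 33% and GRB7 above 16.7% of the genes tested, per kb of exon.

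The composition of the receptor pool was compared as the share of each receptor in the length-scaled counts of all 4. ERBB2 made up 57.1% and 57.6% in the Vehicle samples and 63.4% and 66.3% in the LY500307 samples. ERBB3 made up 32.7% and 34.0% with vehicle and 28.2% and 26.0% with LY500307. EGFR held 9.69% and 8.04% against 7.73% and 6.92%, and ERBB4 remained below 1% throughout, at 0.346% to 0.779%. The groups did not overlap for any of the 4 shares, which are tied to each other through their sum. In CPM, EGFR did overlap. Of all genes tested, 24.2% were higher and 24.4% lower with LY500307 without overlap in CPM, so such separation was common. The ERBB2 share was 57.4% ± 0.371 (SD, n = 2) with vehicle and 64.8% ± 2.08 (SD, n = 2) with LY500307, a difference of 7.46 percentage points, and that of ERBB3 differed by -6.23 percentage points. With 2 samples per group, an exact two-sided permutation test cannot give a p below 0.33, which is the value it gave for each of the 4 shares (4 comparisons, not independent since shares sum to the whole). The ERBB2 difference was between 7.29 and 7.70 points when lengths were left out or taken from the longest transcript or the coding sequence.

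**Figure D3:**
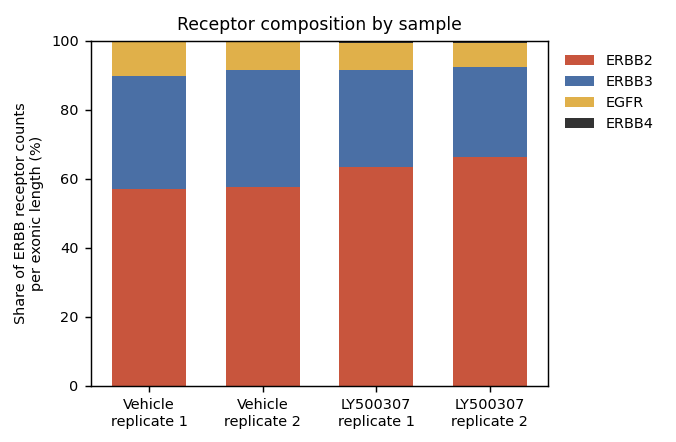
Share of each ERBB receptor in the sum of receptor counts per exonic length (y axis, percent, starting at 0) in each sample (x axis), as stacked bars. ERBB2 takes 57.1% and 57.6% of the pool in the Vehicle samples and 63.4% and 66.3% in the LY500307 samples, and ERBB3 takes correspondingly less.

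ERBB2 and the genes that flank it were not the most highly expressed of their region. Within 1000 kb of the ERBB2 start on either side, a window set after the values were seen, 57 genes were counted and 40 of them were tested. Each gene was placed by its lower coordinate, whatever its strand. Per kb of exon, STARD3 ranked 21, ERBB2 ranked 25 and GRB7 ranked 36 among these 40 genes, and ERBB2 ranked 20 by the longest transcript. The median of the 40 genes was 7.11 CPM per kb, and that of all genes tested was 5.73 CPM per kb. Of 18 further neighbours listed by name, 12 were tested, and 6 of the 12 were above ERBB2 per kb of exon. MED1, a Mediator subunit, was the most highly counted of them, at 348 and 289 CPM with LY500307 against 369 and 361 CPM with vehicle. MIEN1, listed under its older symbol C17orf37 and directly beside ERBB2, was at 14.4 CPM per kb. PGAP3, on the other side of ERBB2, was at 2.24 CPM per kb. At the criteria, 1 of the 40 genes rose (PSMB3, a proteasome subunit gene, log2 fold change 0.57) and 1 fell (GSDMB), where 2.76% and 1.86% of all genes tested did. DNA copy number was not measured in these data.

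GSDMB, a gasdermin gene, was the only 1 of the 12 neighbours tested that passed the criteria. It lies on the minus strand, and its lower coordinate is 217 kb from the ERBB2 start. Its counts were 555 and 621 reads with vehicle, and 438 and 355 after treatment. At 18.5 and 21.9 CPM against 12.6 and 11.0 CPM, both treated samples were lower. Its log2 fold change was -0.77 (standard error 0.16, 95% interval -1.15 to -0.40; edgeR, adjusted p = 0.422). DESeq2 gave -0.77 with an adjusted p of 0.0568, and over all alternatives the adjusted p ran from 6.47e-07 (without LY500307 replicate 1) to 0.973 (without Vehicle replicate 2). Over the fits that each left out 1 sample, the log2 fold change ranged from -0.89 to -0.65. The remaining neighbours had log2 fold changes from -0.67 (IKZF3) to 0.38 (PGAP3), and the median of the 12 was 0.07.

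**Figure D4:**
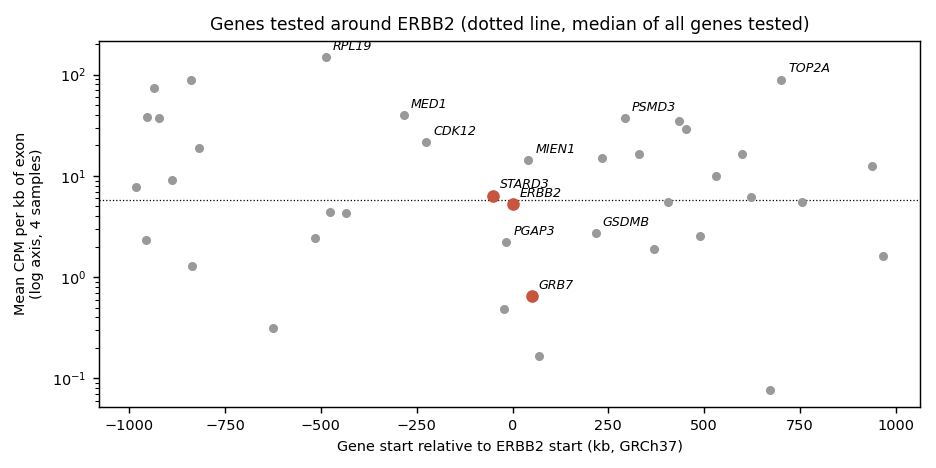
Mean level over the 4 samples of the 40 genes tested within 1000 kb of ERBB2, in CPM per kb of exon (y axis, log scale). The x axis is the distance in kb of the lower coordinate of each gene, whatever its strand, from the ERBB2 start. ERBB2 (5.22), STARD3 (6.38) and GRB7 (0.645), are in red and the dotted line is the median of all genes tested (5.73); only STARD3 of the 3 lies above it, and RPL19 and TOP2A lie far above all 3.

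The wider pathway was read from 82 further genes listed by role, of which 71 were tested. At the criteria, 0 rose and 1 fell (GSDMB), 2 had an unadjusted p below 0.05, and the median log2 fold change was -0.01. Of all genes tested, 2.76% rose, 1.86% fell and 11.6% had an unadjusted p that low. At these shares, lists as small as those below can hold 0 calls, so a count of 0 does not show a stable pathway. With DESeq2, 1 gene met the criteria, again GSDMB.

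Of 8 other ERBB ligand genes, AREG, EREG, BTC and EPGN had 0 reads in all 4 samples, which allows up to 0.0864 to 0.106 CPM per library (3 reads, counting error only). NRG2 was the highest of the rest, at 6.67 and 4.43 CPM with vehicle and 4.87 and 5.41 CPM with LY500307. EGF itself had 15 to 43 reads. At the criteria, 0 of the 4 ligands tested changed with edgeR (0 at an unadjusted p below 0.05, and 0 with DESeq2). The shares of all genes tested were 2.76% risen, 1.86% fallen and 11.6% at an unadjusted p below 0.05. NRG3, a neuregulin, had both treated samples below both Vehicle samples, with 27 and 18 against 15 and 12 reads. Of the 4 shedding genes, the metalloprotease ADAM10 was the most highly counted, at 206 and 203 CPM with vehicle and 201 and 190 CPM with LY500307, and the log2 fold changes of the 4 lay between -0.09 and 0.12.

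Among 23 adaptors and signal relay genes, 0 changed at the criteria (edgeR; 0 at an unadjusted p below 0.05, and 0 with DESeq2). Across all genes tested, 2.76% rose, 1.86% fell and 11.6% had an unadjusted p below 0.05. SHC1, the adaptor that links ERBB receptors to RAS, was the most abundant, at 1756 and 1699 CPM with vehicle and 1763 and 1867 CPM with LY500307. The log2 fold changes of the group ranged from -0.26 (BRAF) to 0.19 (NRAS).

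Of 18 genes of receptor turnover and feedback, 17 were tested and 0 changed at the criteria (edgeR; 0 at an unadjusted p below 0.05, and 0 with DESeq2). For all genes tested, the shares were 2.76% risen, 1.86% fallen and 11.6% at an unadjusted p below 0.05. DUSP6, the ERK phosphatase that ERK signalling induces, was the highest at 1088 and 1082 CPM with vehicle and 1087 and 891 CPM with LY500307, and SPRY4 lay between 770 and 839 CPM. LRIG1, which promotes the degradation of ERBB receptors, was at 13.9 and 15.5 CPM with vehicle and 17.7 and 18.5 CPM with LY500307, a log2 fold change of 0.30 (edgeR, adjusted p = 0.444).

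Of 11 transcripts known to be induced by ERK signalling, 0 changed at the criteria (edgeR, 0 with DESeq2). All genes tested gave shares of 2.76% risen, 1.86% fallen and 11.6% at an unadjusted p below 0.05. In this list, 1 transcript had an unadjusted p that low, which is near the share of all genes. This was EPHA2, an ephrin receptor, at 48.3 and 48.6 CPM against 54.3 and 63.4 CPM, a log2 fold change of 0.28 (edgeR, adjusted p = 0.428). CCND1, which encodes cyclin D1, was the most abundant at 345 CPM in both Vehicle samples and 371 and 351 CPM in the LY500307 samples. The immediate early gene EGR1 was at 220 and 244 CPM with vehicle and at 247 and 165 CPM with LY500307, with overlapping groups.

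**Figure D5:**
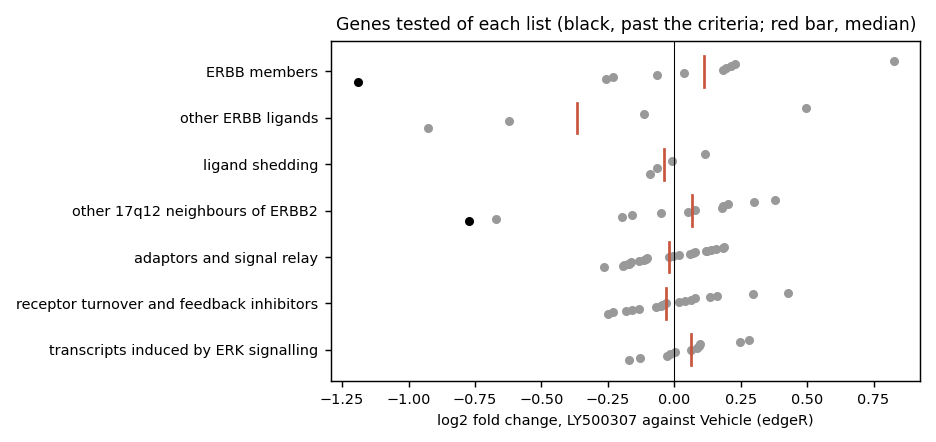
Log2 fold change of LY500307 against Vehicle OCSCs (x axis) for every gene tested in the 10-gene group and in each of the other lists (y axis). Each point is a gene, black where it passed the criteria (TGFA and GSDMB), and red bars are list medians, which lie between -0.37 for the 4 other ligands tested and 0.11 for the 10 genes.

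The genes with the profile closest to ERBB2 over the 4 samples were FAM109A, STK40 and MRPL49, with root mean square differences in centred log2 CPM of 0.0112, 0.0115 and 0.0131 among 9852 genes with at least 10 CPM. MRPL49, for example, was at 93.5, 99.0, 116.7 and 109.1 CPM in the order Vehicle 1, Vehicle 2, LY500307 1 and LY500307 2. With 4 samples, such a ranking describes these libraries only.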

How the data were processed

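Reads of 50 bp were aligned to hg19 by the authors with TopHat2 2.0.8b and counted per gene symbol with HTSeq, per the labels, and the deposited values are raw counts without normalization. The study's methods describe stranded mRNA libraries, the labels total RNA libraries. The annotation version and the strand setting are not given in the sources used here, and 0.440% to 0.481% of tallied reads were ambiguous between genes. Tally lines were left out, of which reads on no gene made up 17.3% to 20.5% and reads with several alignments 32.3% to 33.4%.

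Counts were scaled by TMM, filtered with filterByExpr and tested with the quasi-likelihood test of edgeR 4.0.16 (R 4.3.3) across 14473 genes with Benjamini-Hochberg adjustment. DESeq2 1.42.0, the tool of the study, was an alternative. The criteria of the study were used. Standard errors are the log2 fold change divided by the square root of F. Fits that left out a sample had 1 sample in an arm, which was assumed to vary like the other group. Exonic lengths came from GENCODE v44 lifted to GRCh37, matched to 91.8% of symbols (2184 by an older symbol, from RefSeq names). The fit was tested on simulated counts with the same spread in both groups and changes in well-counted genes only. That test did not cover the wider spread of the LY500307 pair or genes with as few reads as TGFA.

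The 10 genes and all lists were chosen with earlier results of these data known. Genes named are the 10, those of each list that met the criteria, the most highly counted of each list, and the 3 nearest profiles to ERBB2; the others were named after their values were seen. The alternatives are described in the closing section.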

Additional observations from a re-analysis of the deposited data

How the results depend on the processing

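TGFA met the criteria in edgeR under DESeq2 size factors, library totals, no filter on low counts and the replicate block, with a log2 fold change from -1.19 to -1.15, so the count of 1 of the 10 genes stood there. The count was 0 with DESeq2 and 0 with a mean of at least 50 counts, a filter that only 7 of the 10 genes passed. Leaving out 1 sample gave 0 to 1 of the 10 genes, 1 to 3 of the other pathway genes (GSDMB in every such fit, DUSP5 without Vehicle replicate 1, DUSP5 and PGAP3 without LY500307 replicate 1) and 352 to 1987 of all genes, against 669 with all samples. The 1987 came without LY500307 replicate 1 and the 352 without LY500307 replicate 2, and the cause was not tested. Genes with an adjusted p below 0.05 numbered 5002 and 590 in these fits, against 0 with all samples. Both fits take their spread from the Vehicle pair alone, whose counts differed by a chi-square per degree of freedom of 4.79, against 36.5 for the LY500307 pair, so the assumption of like variation was not met there. With a mean of at least 50 counts, the other pathway genes numbered 2 (IKZF3 was added). Without 1 sample, log2 fold changes ran from -0.0137 to 0.43 in GRB7, from -0.16 to 0.47 in STARD3 and from -0.11 to 0.18 in NRG1. Each reversed in 1 fit, GRB7 without Vehicle replicate 1 and the others without LY500307 replicate 2. Those of ERBB2 (0.18 to 0.25), ERBB3 (-0.39 to -0.13), EGFR (-0.39 to -0.09), ERBB4 (0.62 to 1.08) and HBEGF (0.15 to 0.32) kept their sign. Among these genes only EGFR had groups that overlapped in CPM. For the others, leaving out 1 sample could hardly change the sign. The receptor share differences kept their sign under every length and with each sample left out. Because the groups did not overlap for any share, leaving out a sample could not change a sign. A length common to all samples also left little room for such a change. In all, 48 of 58 alternative values for the counts and shares stayed within the limits set for a difference. For the shares, which are tied to each other, the limit was the sign only, which could hardly move. The share values are thus no evidence of stability, and the 48 of 58 is not a measure of it. The 10 values that moved were all counts, among them that of the 10 genes.

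The same-numbered samples had a correlation of deviations from their group means of -0.07 across genes, so the numbers alone are not taken as pairs. With the replicate block, 717 genes met the criteria, 1 of the 10 genes did (TGFA, log2 fold change -1.17) and 1 of the other pathway genes did (GSDMB, -0.77), and no call of the 10 genes changed. With 17 to 50 reads for TGFA and 11 to 28 for ERBB4 and NRG1, depth limits these genes most.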

Other observations

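Among 54 receptor tyrosine kinase genes, a list written after the values were seen, the ERBB receptors were not the leading ones. PDGFRA, a platelet-derived growth factor receptor, was the highest at 149 CPM per kb of exon (range over the 4 samples 147 to 150), followed by FGFR1, a receptor for the bFGF in the medium, at 67.2 CPM per kb (64.3 to 71.4). ERBB2 ranked 13, ERBB3 ranked 17, EGFR ranked 24 and ERBB4 ranked 39. By the longest transcript, ERBB2 ranked 11 and PDGFRA and FGFR1 still ranked 1 and 2. Of the 43 kinases tested, 1 rose and 0 fell at the criteria with edgeR, where 2.76% and 1.86% of all genes tested did, so the share was near that of all genes. The gene that rose was MET, the hepatocyte growth factor receptor, from 2 and 2 reads with vehicle to 12 and 11 reads after treatment. MET passed the expression filter, set at a minimum count of 10, only through the LY500307 samples. With so few vehicle reads only a rise could have been called, so this call carries no weight. DDR1, a collagen receptor, had 1018 and 859 reads with vehicle and 1393 and 1453 reads with LY500307 (log2 fold change 0.41), and EPHA7 had 1577 and 1401 against 1411 and 1225 reads (log2 fold change -0.38). Both had an unadjusted edgeR p below 0.05 and stayed within the 0.5 limit. EPHA2 and MET also had a p that low, as did 11.6% of all genes tested, so DDR1 and EPHA7 do not stand out. These reads are not scaled to library size, and those of EPHA7 overlap between groups although its CPM do not.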
